A study of Mus musculus with 9 samples.

Results

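The transcripts of 10 receptors for colony-stimulating factors and related growth cytokines were followed in RNA-sequencing data from splenic myeloid-derived suppressor cells (MDSCs), the immature myeloid cells that expand in tumour-bearing hosts. The genes were taken by symbol: Csf3r, Csf1r, Csf2ra, Csf2rb, Csf2rb2, Il4ra, Il6ra, Il10ra, Flt3 and Kit, that is 10 of the 23284 gene symbols in the expression tables, and all 10 had a value in each of the 9 samples. Samples fell into 3 groups of 3: polymorphonuclear MDSCs (WT PMN-MDSCs) and monocytic MDSCs (WT Mo-MDSCs) from wild-type C57BL/6J mice, and monocytic MDSCs from C57BL/6 mice labelled as lacking both p16 and p21 (p16/p21-DKO, here DKO-labelled Mo-MDSCs). All mice bore tumours of spindle cell tumour (SCT) cells. The labels give an age of 3 weeks for all mice, whereas the study's methods describe adult mice, older than that when tumour cells were injected, and cells taken 3 weeks after the injection. PMN-MDSCs were collected as Ly6G+ cells and Mo-MDSCs as Ly6G- Gr-1+ cells with magnetic beads, and the deletions were carried by the whole mouse, not by myeloid cells alone. Neither the number of mice behind each sample nor separate mice for the replicates is given, so p-values measure the spread between these samples, which may in part be technical. The 2 comparisons described below, WT Mo-MDSCs against WT PMN-MDSCs and DKO-labelled against WT Mo-MDSCs, share the WT Mo-MDSC samples.

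Colony-stimulating factors drive the output and survival of myeloid cells. G-CSF acts through the CSF3 receptor on the neutrophil lineage, M-CSF and IL-34 act through the tyrosine kinase CSF1R on monocytes and macrophages, and GM-CSF acts through a specific alpha chain paired with a common beta chain that IL-3 and IL-5 also use. The interleukin receptors considered here bind their ligand through a private chain (IL-4Rα, IL-6Rα, IL-10Rα) and signal with a partner chain through JAK kinases and STAT factors, with SOCS proteins as feedback inhibitors, whereas FLT3 and KIT are tyrosine kinase receptors best known from progenitors, dendritic cells and mast cells.

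Expression was given as FPKM (fragments per kilobase of transcript, scaled to the mapped reads of the library), which is a level per unit of transcript length. Each sample held 11299 to 11418 genes at 1 FPKM or more, and the depth in reads is unknown. The labelled subsets differed in their markers: Ccr2, the monocyte chemokine receptor, averaged 2.41 FPKM in WT PMN-MDSCs and 326 in WT Mo-MDSCs, and Cxcr2, the neutrophil chemokine receptor, averaged 713 and 11.8 FPKM. Of the marker lists, 8 of 10 monocyte genes were called higher and 1 lower in WT Mo-MDSCs, the lower one being the Fc receptor gene Fcgr4 (log2 fold change -0.95, limma adjusted p = 0.00013). Of 9 neutrophil genes 6 were called lower and 0 higher, where 18.5% of all genes tested were called higher and 20.6% lower. Across the 9 samples B cell markers summed to 1115 to 1758 FPKM, erythroid markers to 3062 to 6959 FPKM, T and NK cell markers to 19.2 to 36.9 FPKM and platelet markers to 4.07 to 10.2 FPKM. No value for Ly6g, the surface protein used to separate the cells, was analysed here. The gene-level values did not separate the genotypes: Cdkn1a, which encodes p21, stood at 8.18, 6.46 and 8.04 FPKM in WT Mo-MDSCs and at 5.55, 8.52 and 6.00 FPKM in the libraries labelled DKO (limma adjusted p = 0.637). Cdkn2a, the p16 locus, was below 1 FPKM in all 6 of these samples, at 0.432 to 0.772 FPKM in WT and 0 to 0.586 FPKM in DKO-labelled samples. A value per gene does not show which exons carried the reads and the deleted exons are not given in the sources used here, so every direction drawn from the libraries labelled DKO rests on their labels.

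**Figure D1:**
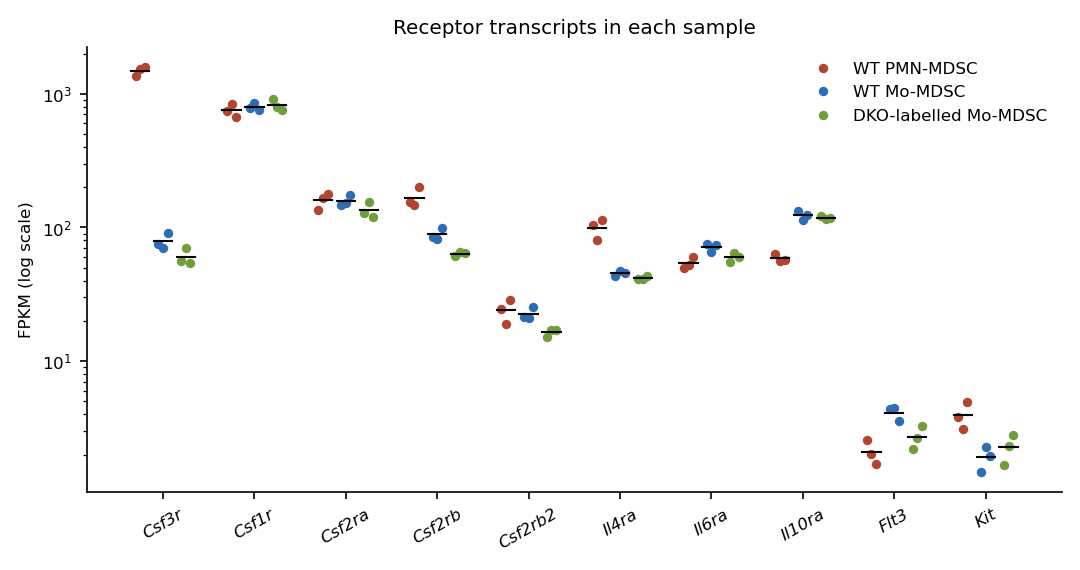
FPKM of the 10 receptor genes in each sample (log axis), with 3 points per group and a bar at the group mean. Csf3r fell from 1483 FPKM on average in WT PMN-MDSCs to 78.8 in WT Mo-MDSCs, Csf1r lay between 674 and 919 FPKM in all 9 samples, and Flt3 and Kit lay below 5 FPKM throughout.

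WT Mo-MDSCs were compared with WT PMN-MDSCs to ask how the receptor set differs between the monocytic and polymorphonuclear subsets. Csf3r, Csf2rb, Il4ra and Kit were lower in WT Mo-MDSCs, Il6ra, Il10ra and Flt3 were higher, and Csf1r, Csf2ra and Csf2rb2 did not pass the test. The difference was 18.9-fold for Csf3r and 1.32-fold to 2.16-fold for the other 6. A gene was called when its limma p-value on log2(FPKM + 0.1), adjusted by the Benjamini-Hochberg method over all 11491 genes tested, was below 0.05. The samples of the 2 groups were treated as unpaired in these fits. All 10 receptor genes passed the filter of 1 FPKM in at least 3 of the 6 samples. Over all genes tested 18.5% were called higher and 20.6% lower in WT Mo-MDSCs, against 3 and 4 of the 10 receptor genes, so calls were common among genes in general and the receptor counts are to be read against those shares. In bulk samples such as these, fewer cells of a type and less RNA per cell cannot be told apart.

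Csf3r (chr4:126024550-126044440, + strand, GRCm38) encodes the G-CSF receptor of neutrophils and their precursors. It stood at 1347, 1523 and 1579 FPKM in WT PMN-MDSCs, at 74.9, 70.4 and 91.1 FPKM in WT Mo-MDSCs and at 56.3, 70.7 and 54.3 FPKM in DKO-labelled Mo-MDSCs. Every WT PMN-MDSC sample lay far above every Mo-MDSC sample. The log2 fold change in WT Mo-MDSCs against WT PMN-MDSCs was -4.24 (SE 0.120, 95% interval -4.52 to -3.96, limma adjusted p = 3.13e-06). Csf3r was the most abundant receptor of the set in WT PMN-MDSCs, where its mean ranked 59 among all gene symbols, and its rank in WT Mo-MDSCs was 1027. Most neutrophil markers moved with it: the 9 markers of the PMN list with a value summed to 99108 to 232451 FPKM in WT PMN-MDSCs and 17845 to 61815 FPKM in WT Mo-MDSCs. Most of both sums was S100a8 and S100a9, which averaged 65944 and 69762 FPKM in WT PMN-MDSCs and 13934 and 14405 FPKM in WT Mo-MDSCs. Of the 9 markers 6 were called lower, while Camp, Ltf and Ngp overlapped between the WT subsets. None of the 9 neutrophil markers was at 0 in Mo-MDSCs. Their part in the Csf3r level of the Mo-MDSC samples was not tested.

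Csf1r (chr18:61100598-61132149, + strand, GRCm38), the M-CSF receptor, is a textbook marker of monocytes and macrophages. Its values in the 2 WT subsets nonetheless overlapped: 745, 841 and 674 FPKM in WT PMN-MDSCs, 787, 853 and 750.5 FPKM in WT Mo-MDSCs and 919, 801 and 759 FPKM in DKO-labelled Mo-MDSCs. All 3 groups overlapped. The log2 fold change between the WT subsets was 0.09 (95% interval -0.18 to 0.35, limma adjusted p = 0.578). The value depended on the scaling between samples: after quantile normalization it was 0.47, outside that interval, and again did not pass (limma adjusted p = 0.0684). Among other genes of the monocyte and macrophage lineage, Ccr2 and F13a1 did not share this pattern (F13a1 averaged 0.933 FPKM in WT PMN-MDSCs and 174 in WT Mo-MDSCs). Red-pulp macrophage markers were present in all samples. The 8 genes of that list summed to 6209 to 7159 FPKM in WT PMN-MDSCs, 3887 to 4891 FPKM in WT Mo-MDSCs and 4315 to 6590 FPKM in DKO-labelled Mo-MDSCs. Of these 8 genes 5 were called lower and 0 higher in WT Mo-MDSCs, where 20.6% of all genes tested were called lower and 18.5% higher. Spic, Mertk and Axl overlapped between the WT subsets, and Mertk averaged 87.5 FPKM in WT PMN-MDSCs and 101 in WT Mo-MDSCs. Among the 5 was the complement gene C1qa, at 1163, 1279.7 and 1129 FPKM in WT PMN-MDSCs and 746, 863 and 670 FPKM in WT Mo-MDSCs. No gene of the list was at 0. The part of these markers in the Csf1r level was not tested.

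The chains of the receptors for GM-CSF, IL-3 and IL-5 were not called alike. Csf2ra, the GM-CSF-binding alpha chain (chr19:61223957-61228429, - strand, GRCm38), was at 136, 165 and 178 FPKM in WT PMN-MDSCs, 148, 153 and 174 FPKM in WT Mo-MDSCs and 129, 155 and 120 FPKM in DKO-labelled Mo-MDSCs. The 2 WT groups overlapped, with a log2 fold change of -0.01 (95% interval -0.29 to 0.27, limma adjusted p = 0.964). This result depended on the scaling between samples: after quantile normalization Csf2ra was higher in WT Mo-MDSCs by 0.36 on the log2 scale (limma adjusted p = 0.0195). Csf2rb, the common beta chain through which GM-CSF, IL-3 and IL-5 signal, was at 155, 147 and 199 FPKM in WT PMN-MDSCs, 84.1, 81.8 and 99.9 FPKM in WT Mo-MDSCs and 60.9, 65.5 and 64.7 FPKM in DKO-labelled Mo-MDSCs. Each WT PMN-MDSC sample exceeded each Mo-MDSC sample, and the log2 fold change between the WT subsets was -0.91 (SE 0.137, limma adjusted p = 0.00218). Csf2rb2, the mouse-specific beta chain that serves IL-3 with its own alpha chain, was lower than Csf2rb in every sample. Csf2rb2 stood at 24.4, 19.05 and 28.7 FPKM in WT PMN-MDSCs, 21.4, 20.9 and 25.4 FPKM in WT Mo-MDSCs and 15.2, 17.0 and 17.0 FPKM in DKO-labelled Mo-MDSCs. The WT groups overlapped (log2 fold change -0.08, 95% interval -0.45 to 0.30, limma adjusted p = 0.732).

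The beta chains Csf2rb (chr15:78325752-78353847, + strand) and Csf2rb2 (chr15:78282507-78305721, - strand, GRCm38) lie 20030 bases apart, and their sequences are shown because reads of 1 gene can fit the other. Their longest coding sequences in GENCODE M21, 2691 and 2637 bases long, were identical at 95.2% of 2631 aligned bases. The longest unbroken run of identical bases spans 242 bases, at coding positions 2083 to 2324 in both genes.
Identical run in Csf2rb and Csf2rb2: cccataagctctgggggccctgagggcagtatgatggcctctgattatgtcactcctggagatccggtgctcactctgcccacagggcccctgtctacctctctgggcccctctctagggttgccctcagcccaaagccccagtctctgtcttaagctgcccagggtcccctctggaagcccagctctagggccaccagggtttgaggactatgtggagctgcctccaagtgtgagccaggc
The most different stretch of 90 bases holds 16 differences, which are printed in capitals, and starts at coding base 308 in Csf2rb and 311 in Csf2rb2.
Csf2rb: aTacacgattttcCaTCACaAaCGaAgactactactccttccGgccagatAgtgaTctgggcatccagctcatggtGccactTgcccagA
Csf2rb2: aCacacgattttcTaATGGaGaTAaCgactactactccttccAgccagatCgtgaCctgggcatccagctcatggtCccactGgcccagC
Of the 75-base windows, the length of the reads, 15.8% of those in the Csf2rb coding sequence and 16.1% of those in Csf2rb2 occur without a mismatch in the other gene. How the authors' tools shared such reads is not given in the sources used here, so the 2 beta-chain values, and Csf2rb2 as the lower of them in particular, are less certain than the other receptor values.

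The interleukin receptor chains split by subset. Il4ra (chr7:125552120-125579474, + strand), the ligand-binding chain for IL-4 and, with IL-13Rα1, for IL-13, stood at 104, 80.3 and 114 FPKM in WT PMN-MDSCs, 43.1, 47.5 and 45.8 FPKM in WT Mo-MDSCs and 41.4, 41.3 and 43.4 FPKM in DKO-labelled Mo-MDSCs. The lowest WT PMN-MDSC sample lay above the highest Mo-MDSC sample, and the log2 fold change between the WT subsets was -1.11 (SE 0.133, limma adjusted p = 0.000784). Il10ra (chr9:45253837-45269149, - strand), the ligand-binding chain of the receptor for the anti-inflammatory cytokine IL-10, went the other way. It was at 63.6, 56.5 and 56.9 FPKM in WT PMN-MDSCs, 133, 114 and 125 FPKM in WT Mo-MDSCs and 122, 115 and 118 FPKM in DKO-labelled Mo-MDSCs, again without overlap between the subsets (log2 fold change 1.07, SE 0.0885, limma adjusted p = 0.000142). Il6ra (chr3:89864059-89913196, - strand), which binds IL-6, differed least among the called genes. It was at 50.1, 52.3 and 60.3 FPKM in WT PMN-MDSCs, 75.1, 65.3 and 73.5 FPKM in WT Mo-MDSCs and 54.8, 64.6 and 60.3 FPKM in DKO-labelled Mo-MDSCs. The WT subsets did not overlap (log2 fold change 0.40, SE 0.0979, limma adjusted p = 0.0172), but the call was lost, at limma adjusted p = 0.0501 to 0.0613, when WT PMN-MDSC replicate 1 or 2 or WT Mo-MDSC replicate 1 or 3 was left out, and in replicates 2 and 3 alone, whose library identifiers run apart from those of replicate 1 (log2 fold change 0.30, limma adjusted p = 0.131).

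Flt3 and Kit were the scarcest receptors of the set. Flt3 (chr5:147330741-147400489, - strand), the receptor of the FLT3 ligand on progenitors and dendritic cells, was listed at 2.58, 2.01 and 1.69 FPKM in WT PMN-MDSCs, 4.39, 4.44 and 3.54 FPKM in WT Mo-MDSCs and 2.21, 2.67 and 3.29 FPKM in DKO-labelled Mo-MDSCs. It was higher in WT Mo-MDSCs than in WT PMN-MDSCs with no overlap (log2 fold change 0.96, SE 0.184, limma adjusted p = 0.00605). Kit (chr5:75574916-75656722, + strand), the stem cell factor receptor, was at 3.83, 3.12 and 4.92 FPKM in WT PMN-MDSCs, 1.49, 2.29 and 1.95 FPKM in WT Mo-MDSCs and 1.67, 2.31 and 2.82 FPKM in DKO-labelled Mo-MDSCs. It was lower in WT Mo-MDSCs with no overlap (log2 fold change -1.01, SE 0.221, limma adjusted p = 0.0103), a call lost in replicates 2 and 3 alone (log2 fold change -0.86, limma adjusted p = 0.0732). Markers of the cell types known for these receptors were also summed. The 8 dendritic cell markers summed to 113 to 133 FPKM in WT PMN-MDSCs and 139 to 175 FPKM in WT Mo-MDSCs, and most of each sum came from Bst2. Clec9a and Clec10a were called higher in WT Mo-MDSCs and 0 lower, where 18.5% of all genes tested were called higher and 20.6% lower. Siglech went the other way without overlap, at 0.716 FPKM on average in WT PMN-MDSCs and 0.290 in WT Mo-MDSCs. Zbtb46, Xcr1, Bst2 and Dpp4 overlapped between the WT subsets. The 8 progenitor markers summed to 13.01 to 19.6 FPKM in WT PMN-MDSCs and 57.5 to 75.4 FPKM in WT Mo-MDSCs. Of the 5 tested 3 were called higher and 0 lower, to be read against the same shares of all genes. Most of the WT Mo-MDSC sum came from Cd93 and Prtn3 (32.7 and 18.4 FPKM on average), and Cd34, Gata2, Mpo, Ctsg and Myb overlapped between the WT subsets. The 8 mast cell and basophil markers summed to 5.44 to 16.7 and 6.31 to 19.1 FPKM, most of it Gata1, with Tpsb2 at 0 in all 9 samples. Their part in the Flt3 and Kit values was not tested.

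**Figure D2:**
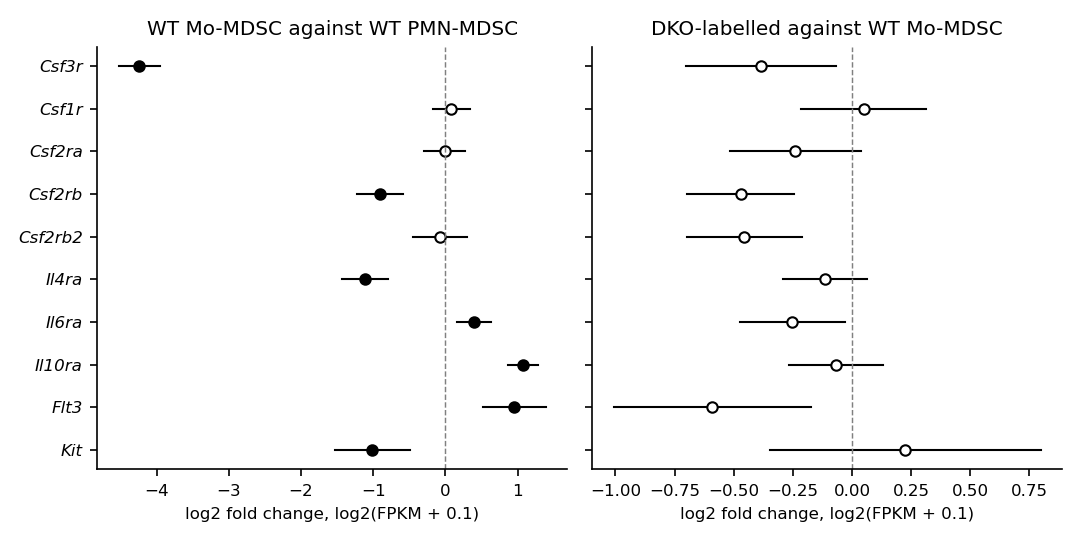
Log2 fold change of each receptor gene on the log2(FPKM + 0.1) scale with its 95% interval from limma, for WT Mo-MDSCs against WT PMN-MDSCs (left) and DKO-labelled against WT Mo-MDSCs (right, on a narrower axis). Filled points passed an adjusted p of 0.05: on the left 3 lie above 0 and 4 below, from -4.24 for Csf3r to 1.07 for Il10ra, and on the right none is filled.

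Within each group the receptors kept a stepped order. In WT PMN-MDSCs it ran from Csf3r and Csf1r through Csf2rb, Csf2ra, Il4ra, Il10ra, Il6ra and Csf2rb2 to Kit and Flt3, and the sample ranges of the neighbours Csf2rb and Csf2ra, and of Il10ra and Il6ra, overlapped. In WT Mo-MDSCs Csf1r led alone, at 797 ± 52.0 FPKM (SD, n = 3) against 158 ± 13.8 FPKM for Csf2ra in second place, followed by Il10ra, Csf2rb, Csf3r, Il6ra, Il4ra, Csf2rb2, Flt3 and Kit, with overlap only between Csf2rb and Csf3r and between Csf3r and Il6ra. The DKO-labelled samples had the same order of means as WT Mo-MDSCs, and there Csf2ra with Il10ra and Flt3 with Kit overlapped as well. Csf1r ranked 119 among all gene symbols in WT Mo-MDSCs and 158 in WT PMN-MDSCs, whereas Kit ranked 10581 and 9171.

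Partner chains set the context of these values, and ratios of 2 genes within a sample do not depend on the scaling of that sample. The ratio of Csf1r to Csf3r was 0.553, 0.552 and 0.427 in WT PMN-MDSCs and 10.5, 12.1 and 8.23 in WT Mo-MDSCs, so the dominant colony-stimulating factor receptor transcript switched between the subsets. Il10ra exceeded its partner Il10rb, the shared signalling chain, in all 6 Mo-MDSC samples and in none of the WT PMN-MDSC samples: the ratio was 0.482, 0.457 and 0.405 in WT PMN-MDSCs and 1.58, 1.43 and 1.53 in WT Mo-MDSCs, as Il10rb was lower (log2 fold change -0.69, limma adjusted p = 0.00054) while Il10ra was higher. Il6ra and Il6st, which encodes the shared signalling chain gp130, both rose, and Il6st rose more (10.2 to 24.9 FPKM on average, log2 fold change 1.28, limma adjusted p = 0.000197), so that the ratio of Il6ra to Il6st went from 4.27, 5.02 and 6.83 to 2.90, 2.59 and 3.09.

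Il4ra stood close to the level of Il2rg, the common gamma chain with which it forms the type I IL-4 receptor, in WT PMN-MDSCs (ratio 1.07, 0.853 and 1.21) and well below it in WT Mo-MDSCs (0.368, 0.421 and 0.413). Il13ra1, the partner in the type II receptor for IL-4 and IL-13, fell along with Il4ra (log2 fold change -1.32, limma adjusted p = 0.000629), and the ratio of Il4ra to Il13ra1 overlapped between the subsets, with geometric means of 1.03 and 1.19. The ratio of Csf2rb to Csf2rb2 was 6.35, 7.67 and 6.91 in WT PMN-MDSCs and 3.92, 3.91 and 3.91 in WT Mo-MDSCs, and that of Csf2ra to Csf2rb was 0.877, 1.12 and 0.894 against 1.76, 1.87 and 1.74. With 3 samples a group, taken as unpaired, the two-sided exact permutation test cannot go below p = 0.1. Between the WT subsets 6 of the 7 ratios reached that value (0.117 after Benjamini-Hochberg adjustment over the 7).

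**Figure D3:**
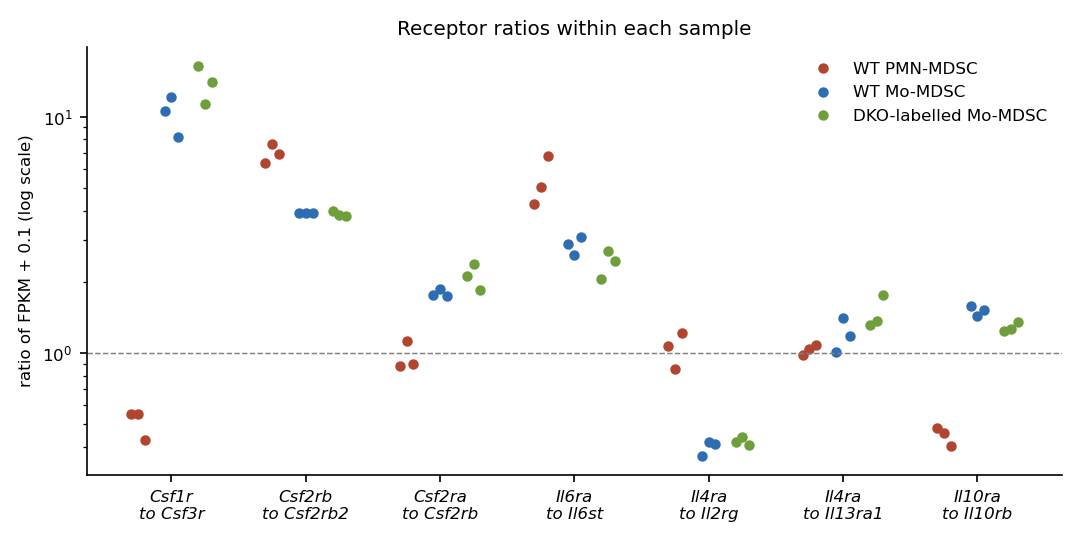
Ratio of FPKM + 0.1 between 2 receptor genes in each sample (log axis), with 3 points per group and a dashed line at a ratio of 1. The ratio of Csf1r to Csf3r lies below 1 in WT PMN-MDSCs (geometric mean 0.507) and above 8 in all Mo-MDSC samples, and that of Il4ra to Il13ra1 overlaps between the WT groups.

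The wider pathway was described with lists of receptor partners, ligands, JAK kinases and STAT factors, negative regulators, adaptors and cytokine target genes. Of 79 listed genes 66 passed the filter, and 14 were called higher and 31 lower in WT Mo-MDSCs, with a median log2 fold change of -0.18 against 0.01 over all genes tested. The counts of these lists are to be read against the 18.5% of all genes called higher and 20.6% called lower, and the higher count lay near its share. The kinases and transcription factors were mostly lower: 7 of 11 were called lower and 3 higher. Jak1 fell from 140 to 74.9 FPKM on average (log2 fold change -0.90, limma adjusted p = 0.000199), and Jak2, the kinase bound by the beta chain and the G-CSF receptor, by 0.84 on the log2 scale (limma adjusted p = 0.00081). Tyk2, a kinase used by the IL-10 and IL-6 receptor complexes, was the exception with the largest rise, from 18.0 to 39.1 FPKM (log2 fold change 1.11, limma adjusted p = 6.2e-05). Stat4, at -0.97, had the largest fall among the STAT factors, and Stat3, the main STAT of G-CSF, IL-6 and IL-10 signalling, fell by 0.62 on the log2 scale.

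Genes known to be induced by these cytokines were lower in WT Mo-MDSCs in most cases, with 10 of the 14 tested called lower and 0 called higher (10 had an unadjusted p below 0.05). Over all genes tested 20.6% were called lower, and 48.3% had an unadjusted p below 0.05 in either direction. Osm, the cytokine oncostatin M, had a log2 fold change of -2.99 (27.4 to 3.41 FPKM, limma adjusted p = 0.000109), and Junb, an AP-1 factor, of -1.95. Bcl6, a transcriptional repressor, and Mcl1, a survival factor of neutrophils, fell by 1.24 and 1.08 on the log2 scale. The feedback inhibitor Socs3, which binds the G-CSF receptor and gp130, was at 222, 170 and 257 FPKM in WT PMN-MDSCs and at 32.5, 38.2 and 35.7 FPKM in WT Mo-MDSCs, without overlap (log2 fold change -2.59, limma adjusted p = 3.77e-05).

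Among the 16 negative regulators 5 were called higher and 4 lower, not far from the 18.5% and 20.6% of all genes. Socs6 rose by 0.92 and Socs1 fell by 0.82 on the log2 scale, while Ptpn6, the phosphatase SHP-1, fell by 0.64, a call that quantile normalization removed (log2 fold change -0.17). Of the 13 adaptors and PI3K subunits 7 were lower and 1 higher: Tyrobp, the adaptor DAP12, fell by 1.24, Pik3r5 by 0.88 and Gab2 by 0.87 on the log2 scale, and Gab1 rose by 1.33. Among the 9 partner subunits that passed the filter 4 were higher and 2 lower, led by Lifr, the receptor chain for leukaemia inhibitory factor, at 1.54 FPKM on average in WT PMN-MDSCs and 8.37 in WT Mo-MDSCs (log2 fold change 2.38, limma adjusted p = 5.32e-05).

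Ligands were scarce in these cells. Only Csf1, Flt3l and Kitl of 12 ligand genes passed the filter, and Il3, Il5 and Il13 were listed at 0 in all 9 samples. Csf1, the M-CSF gene, was at 19.96, 24.3 and 22.4 FPKM in WT PMN-MDSCs, 2.03, 1.25 and 1.75 FPKM in WT Mo-MDSCs and 2.57, 2.22 and 2.30 FPKM in DKO-labelled Mo-MDSCs. It was thus far higher in WT PMN-MDSCs (log2 fold change -3.67 in WT Mo-MDSCs, limma adjusted p = 1.87e-05), while its receptor Csf1r did not pass the test. Flt3l moved the other way and weakly (log2 fold change 0.39, limma adjusted p = 0.0441), a call that held when WT Mo-MDSC replicate 1 was left out and was lost when any of the other 5 samples was left out, with limma adjusted p up to 0.128.

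**Figure D4:**
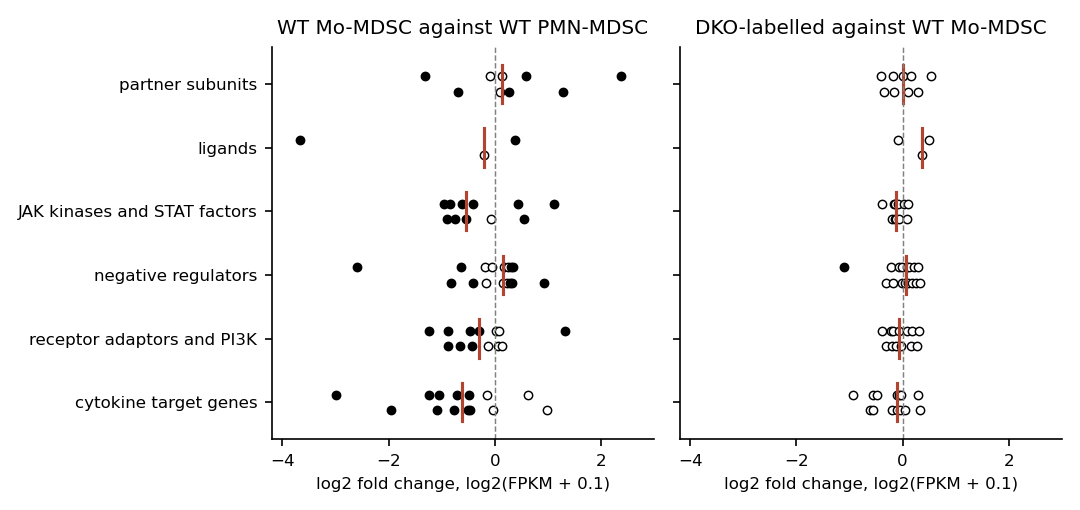
Log2 fold change of each tested gene of the 6 pathway lists on the log2(FPKM + 0.1) scale, for WT Mo-MDSCs against WT PMN-MDSCs (left) and DKO-labelled against WT Mo-MDSCs (right), with filled points for an adjusted p below 0.05 and a red bar at the list median. On the left 31 genes are called lower and 14 higher, from Csf1 at -3.67 to Lifr at 2.38, and on the right Socs3 at -1.10 is the only filled point.

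DKO-labelled Mo-MDSCs were compared with WT Mo-MDSCs to ask whether receptor expression differs with the genotype on the labels. No receptor gene was called by limma, although 5 of the 10 had an unadjusted p below 0.05, all of them lower in the DKO-labelled samples: Csf3r, Csf2rb, Csf2rb2, Il6ra and Flt3. Calls were rare in this comparison as a whole, with 0.166% of 11451 genes higher and 0.0873% lower, whereas an unadjusted p below 0.05 in the lower direction was found for 9.74% of genes. Values of 4 receptor genes, Csf2rb, Csf2rb2, Il6ra and Flt3, did not overlap and were lower in the DKO-labelled samples, against 12.9% of all genes tested. The median log2 fold change of the 10 genes was -0.25, with 8 below 0 (Il10ra among them above 0 after quantile normalization), against -0.02 over all genes tested.

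Both beta chains had log2 fold changes of like size. The log2 fold change was -0.47 for Csf2rb (SE 0.0976, 95% interval -0.70 to -0.24, limma adjusted p = 0.136) and -0.46 for Csf2rb2 (SE 0.105, 95% interval -0.70 to -0.21, limma adjusted p = 0.156), and since the genes share sequence these are not independent readings. The ratio of Csf2rb to Csf2rb2 was 3.99, 3.84 and 3.79 in the DKO-labelled samples and overlapped with WT Mo-MDSCs. Flt3 had the lowest log2 fold change of the set, -0.59 (SE 0.180, 95% interval -1.01 to -0.17, limma adjusted p = 0.222), at levels of 2.21 to 4.44 FPKM. Il6ra was at -0.25 (95% interval -0.48 to -0.03, limma adjusted p = 0.291).

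Csf3r had a log2 fold change of -0.38 (95% interval -0.70 to -0.07, limma adjusted p = 0.269), and its highest DKO-labelled sample, at 70.7 FPKM, just exceeded the lowest WT sample at 70.4. Csf1r, at 0.05 (95% interval -0.21 to 0.31, limma adjusted p = 0.859), Il10ra, at -0.07 (-0.27 to 0.13, limma adjusted p = 0.737), and Il4ra, at -0.11 (-0.29 to 0.07, limma adjusted p = 0.516), had intervals that reached no farther from 0 than 0.31 on the log2 scale. Csf2ra, at -0.24 (-0.52 to 0.04, limma adjusted p = 0.382), and Kit, at 0.23 (-0.35 to 0.80, limma adjusted p = 0.687), were less tightly bounded. The study's thresholds for this comparison were a ratio of group values under 0.75 and p under 0.05, here applied to the limma p before adjustment. Under them Csf2rb, Csf2rb2 and Flt3 counted as lower, where 4.43% of all genes were lower. None counted as higher at the mirror-image fold, where 2.57% of all genes were higher.

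Cell markers differed as well, in both directions. The PMN marker sum, mostly S100a8 and S100a9, was 17845 to 61815 FPKM in WT Mo-MDSCs and 7017 to 17074 FPKM in the DKO-labelled samples. Of its 9 markers 5 were lower and 1 higher without overlap, where 12.9% of all genes tested were lower without overlap. By limma 0 were called. An unadjusted p below 0.05 was found for 7, 6 of them lower, where 9.74% of all genes were lower at that p. Among the lower ones Retnlg stood at 64.6, 107 and 79.2 FPKM in WT and at 33.6, 33.3 and 13.9 FPKM in DKO-labelled Mo-MDSCs. The higher one was Mmp8, at 49.2 FPKM on average in WT and 86.6 in DKO-labelled Mo-MDSCs. The Mo marker sum was 8797 to 12080 and 6860 to 8013 FPKM. Of its 10 markers 7 were lower without overlap, to be read against the same 12.9% of all genes. The 1 marker higher without overlap was Fcgr4 (133 and 152 FPKM on average). The progenitor marker sum was 57.5 to 75.4 and 39.6 to 57.1 FPKM, beside the Flt3 values. Most of it was Cd93 (32.7 and 34.1 FPKM on average, with overlap) and Prtn3 (18.4 and 6.41 FPKM on average, without overlap). Of the 8 red-pulp macrophage markers 2 were higher and 0 lower without overlap, Spic (269 and 413 FPKM on average) and Slc40a1 (564 and 826). Of the 6 B cell markers 2 were higher and 0 lower without overlap, Cd79b (343 and 408 FPKM on average) and Pax5 (49.2 and 59.0). Limma called 0 of these markers, and the share of all genes higher without overlap was not counted. The part of these marker differences in the receptor values was not tested.

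Of the pathway genes only Socs3 was called between DKO-labelled and WT Mo-MDSCs. It stood at 14.6, 20.1 and 15.3 FPKM against 32.5, 38.2 and 35.7 FPKM, without overlap (log2 fold change -1.10, SE 0.134, limma adjusted p = 0.0278), and the call held in 1 of the 6 fits that left out a sample, the fit without DKO-labelled replicate 2, with limma adjusted p up to 0.153 in the others. Of the 14 cytokine target genes tested none was called, and 11 had a log2 fold change below 0 and 3 above. An unadjusted p below 0.05 in the lower direction was found for 9.74% of all genes tested. Of the 14 target genes 6 had an unadjusted p below 0.05, 5 of them lower. Among these Junb had a log2 fold change of -0.62 (limma adjusted p = 0.112), Bcl6 of -0.57 (limma adjusted p = 0.141) and Pim1, a kinase induced by STAT5 and STAT3, of -0.48 (limma adjusted p = 0.177). The cell cycle gene Ccnd2 went the other way without overlap, at 17.4 FPKM on average in WT and 21.9 in DKO-labelled Mo-MDSCs (log2 fold change 0.33, limma adjusted p = 0.287). Partner chains did not pass either, with Il6st at 0.01, Il10rb at 0.16, Il2rg at -0.19 and Il13ra1 at -0.41. Il10rb was higher and Il2rg and Il13ra1 were lower without overlap. Of the 9 partner subunits tested 3 were higher and 3 lower without overlap, where 12.9% of all genes tested were lower without overlap. An unadjusted p below 0.05 was found for 4 of the 9, 3 of them lower, to be read against the same 9.74%. Of the 7 ratios, that of Il10ra to Il10rb did not overlap, at 1.24, 1.27 and 1.36 in the DKO-labelled samples against 1.43 to 1.58 in WT (exact permutation p = 0.1, 0.35 after adjustment over the 7), and the other 6 overlapped.

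Genes whose profiles over the 9 samples lay closest to each receptor were listed by the root mean square difference between log2 profiles centred on their mean. For Csf3r these were Ccdc80, Krt86 and Trem1 (0.223, 0.235 and 0.236), all far higher in WT PMN-MDSCs, as Trem1, an activating receptor of neutrophils, was at 60.8 FPKM on average there and 3.38 FPKM in WT Mo-MDSCs. For Csf2rb they were Cd52, Rgs14 and Arid3a (0.0736, 0.0782 and 0.0912), which share its stepwise order of the group means, with Cd52, a lymphocyte and myeloid surface peptide, at 2371, 1288 and 931 FPKM. Csf1r was closest to Eri3, P2rx4 and Fyn, Csf2ra to Cst3, Snrpf and Rpl28, and Csf2rb2 to Tspan5, Ppm1m and Zdhhc3. The closest profiles to Il4ra were Dusp16, Sfn and Tcp11l2, to Il6ra Brpf1, Polr3c and Daxx, and to Il10ra Sfxn3, Calhm2 and Itpr1. Kit was closest to Cd24a, Abhd2 and Tlr5, with larger distances (0.133 to 0.191) than for the other receptors named here except Csf3r.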

How the data were processed

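RNA of 9 samples of splenic MDSCs was sequenced by the authors (stranded mRNA libraries, Illumina sequencer, single-end reads of 75 bases), aligned to mm10 with TopHat2 2.0.13, Bowtie2 2.2.3 and SAMtools 0.1.19, and summarised with Cuffnorm 2.2.1, per the submitters' processing notes. The deposited values are FPKM per gene symbol, 1 table per sample. The gene annotation, the Cuffnorm scaling and the read totals are not given in the sources used here. Lowly expressed genes gave relative depths of 0.809 to 1.31 against WT Mo-MDSC replicate 1, but only 363 to 437 of the 1955 to 2178 such genes compared per sample lay on a common step, so whole reads could not be recovered. No 2 tables were identical.

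Groups came from the labels. FPKM values were compared on log2(FPKM + 0.1), so fold changes of low genes are understated, with limma 3.58.1 (moderated test with a mean-variance trend, R 4.3.3), in fits of 6 samples, over genes with at least 1 FPKM in 3 of the 6, with Benjamini-Hochberg adjustment and 95% intervals. The median SE of a log2 fold change was 0.118 between the WT subsets and 0.122 between genotypes. Ratios and single genes were compared by two-sided exact permutation tests. The limma script was tested on simulated data. Coordinates and coding sequences came from GENCODE M21 (GRCm38) and the coding sequences were aligned with Biopython 1.88. Chil3 and Hbb-bs were matched as Chi3l3 and Beta-s through RefSeq synonyms.

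All 10 receptor genes were named, and of each pathway list at most 4 genes per comparison, those with the largest log2 fold change among called genes whose groups did not overlap, together with the partner chains of the ratios. Stat3, Pim1, other genes of the lists that did not pass and the markers were named after their values were seen. The receptor genes, lists and tests were chosen with earlier results of these data known. Samples with the same replicate number deviated together between the WT subsets (correlations of 0.200 to 0.483 over genes), so their numbers were taken to pair them. The limma fits and permutation tests did not use this pairing, except where the replicate block is named. SEs, intervals, p-values and shares of all genes are thus those of unpaired groups. With the replicate block 3167 genes were higher and 3417 lower, against 2121 and 2371 without it. Alternatives changed the pseudocount, the filter, the scaling, the samples in the fit and the call rule. The genes closest in profile to Flt3 are not reported here.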

Additional observations from a re-analysis of the deposited data

How the results depend on the processing

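Between the WT subsets the 3 higher and 4 lower receptor calls held under the other pseudocounts and filters, in the fit of all 9 samples, after scaling to the same median, with the replicate block (3 higher and 4 lower) and, for the lower calls, with any sample left out (4 each time, against 2 to 3 higher, the call in question being Il6ra). In replicates 2 and 3 only, 2 were higher and 3 lower, as Il6ra and Kit did not pass. The study's thresholds between the subsets were a fold above 2 in Mo-MDSCs and p below 0.05, here applied to the limma p before adjustment. Under them 1 receptor gene was higher, and at the mirror-image fold, which the study did not apply, 3 were lower. Quantile normalization gave 4 higher and 4 lower, and moved Csf1r from 0.0851 to 0.472, Il6ra from 0.396 to 0.622 and Csf2rb from -0.907 to -0.552 on the log2 scale. Csf2ra changed direction after quantile normalization (0.36) and scaling to the same median (0.0175), and ranged from -0.118 to 0.0749 with samples left out. Csf2rb2 ranged from -0.234 to 0.0606. Pathway calls numbered 19 higher and 32 lower with the replicate block, 4 and 9 under the study's thresholds and their mirror image, and 9 to 11 and 27 to 31 with samples left out. In DKO-labelled against WT Mo-MDSCs the receptor counts stayed at 0 in every limma setting, the replicate block included, and 3 were lower under the study's thresholds. The pathway count, 1 lower (Socs3), was 0 without a filter and in replicates 2 and 3 only, 0 to 1 with samples left out, 1 with the replicate block, and 6 lower with 2 higher under the study's thresholds. Il10ra changed direction after quantile normalization (0.0891) and Csf1r in replicates 2 and 3 only (-0.0377), and Csf1r ranged from -0.0300 to 0.108 with samples left out. The log2 ratio of Csf2rb to Csf2rb2 ranged from -0.0366 to 0.000222. The cause of these changes was not tested. Between the Mo-MDSC samples of the 2 genotypes, same-number correlations ran from -0.07 to 0.35 (mean 0.168), against a mean of -0.0835 for different numbers. With 3 same-number correlations this did not settle whether the numbers pair those samples. The library identifiers run in sequence across the 3 groups within each replicate number, and what this order stands for is not given. The replicate block gave 14 higher and 6 lower calls over all genes, against 19 and 10 without it. Over all genes the thresholds of the study, with no adjustment, gave 294 higher and 507 lower, and fits without a filter gave 9 and 4, those with all 9 samples 25 and 26, and those in replicates 2 and 3 only 7 and 0. With 3 samples a group, unknown read depth and levels below 5 FPKM, the Flt3 and Kit values are the least precise.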

Other observations

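The alpha chains that pair with the common beta chain for IL-3 and IL-5 were looked at after their values were seen. Il3ra, the IL-3-binding chain, averaged 14.2 FPKM in WT PMN-MDSCs and 21.3 FPKM in WT Mo-MDSCs (log2 fold change 0.59, limma adjusted p = 0.00464), opposite in direction to Csf2rb. Il5ra, the IL-5-binding chain of eosinophils and B-1 cells, was at 5.79, 5.24 and 4.53 FPKM in WT Mo-MDSCs and at 8.38, 6.23 and 8.24 FPKM in DKO-labelled Mo-MDSCs, with no overlap, and did not pass the test (log2 fold change 0.54, limma adjusted p = 0.202). The genotype rests on the labels.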
